A study of Homo sapiens with 2 samples.

Results

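The snoRNA host genes described here are 10 noncoding genes of the human genome: GAS5, ZFAS1, SNHG1, SNHG5, SNHG6, SNHG7, SNHG8, SNHG12, SNHG15 and SNHG16. They were taken by symbol from 23686 genes measured in A427, an established cell line from a human non-small cell lung cancer, whose cultures hold attached cells as well as cells in suspension. The groups are floating, sphere-forming cells and adherent cells, both of the same line, labelled wild type and grown in RPMI medium with serum, with no other treatment named in the labels, while the series title calls the line CTNNB1-mutated. A sequencing library of poly(A) RNA was made from each growth form, 1 per group, so nothing here measures the spread between cultures and no p-value is given. Floating cells gave 27148842 gene-assigned reads and adherent cells 26384670. A gene was tested if it reached 1 CPM (count per 1000000 reads after scaling) in at least one library, which 13131 genes and all 10 host genes did. The epithelial markers EPCAM, KRT8 and KRT18 were abundant in both libraries, at 327 to 615 TPM (transcripts per 1000000, a level corrected for length). KRT8 and KRT18 were 1.83- and 1.84-fold higher in floating cells, a wider difference than that of any host gene, EPCAM was at a log2 ratio of -0.04, and the adhesion protein gene CDH1 was lower, with 13.9 TPM in floating and 18.9 TPM in adherent cells (log2 ratio -0.39). KRT19 had 22 reads in floating and 8 in adherent cells. The lung lineage factor NKX2-1 had 13 reads in floating and 3 in adherent cells, and LYZ, CD3E and CDH5, markers of blood and endothelium, had none. Summed over their lists, fibroblast markers reached 8.28 TPM in floating and 14.1 TPM in adherent cells (mostly COL1A1), blood cell markers 1.95 and 2.89 TPM (mostly PTPRC) and endothelial markers 0.42 and 0.13 TPM (mostly VWF, with 44 and 14 reads); their part in the results was not tested. In bulk RNA, fewer cells of a type and less RNA per cell cannot be told apart.

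Small nucleolar RNAs (snoRNAs) guide the methylation and pseudouridylation of ribosomal RNA, and in human cells most are cut out of the introns of host genes. What is left of a noncoding host is a spliced, polyadenylated RNA that often reaches ribosomes, is read over a short frame and is then removed by nonsense-mediated decay (NMD), so that its level depends on translation and decay as well as on transcription. Many hosts also start with a run of pyrimidines, the terminal oligopyrimidine (TOP) tract, through which mTOR and the binding protein LARP1 control ribosomal protein mRNAs. GAS5 was named for its accumulation in growth-arrested cells and has been described as a decoy for the glucocorticoid receptor.

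Start regions of 6 host genes are shown because the TOP tract and the TATA box lie there, and because these 6 cover genes that were higher in floating cells, lower, or not apart. They come from RefSeq on GRCh38.p14, not the build of the expression files, and run from 50 bases before to 50 bases after the annotated start, 5′ to 3′ on the transcribed strand. Capitals mark the longest run that begins with C within 5 bases of the start and goes on with at least 4 further C or T. SNHG5 lies at chr6:85678684-85678783 (minus strand), SNHG8 at chr4:118278712-118278811 (plus strand), GAS5 at chr1:173868996-173869095 (minus strand), SNHG12 at chr1:28581824-28581923 (minus strand), ZFAS1 at chr20:49278592-49278691 (plus strand) and SNHG1 at chr11:62855836-62855935 (minus strand).
SNHG5: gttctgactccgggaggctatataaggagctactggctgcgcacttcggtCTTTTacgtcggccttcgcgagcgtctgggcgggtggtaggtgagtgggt
SNHG8: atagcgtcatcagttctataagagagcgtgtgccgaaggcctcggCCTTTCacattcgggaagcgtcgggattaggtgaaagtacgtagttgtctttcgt
GAS5: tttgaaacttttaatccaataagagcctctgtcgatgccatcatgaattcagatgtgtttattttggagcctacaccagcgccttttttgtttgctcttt
SNHG12: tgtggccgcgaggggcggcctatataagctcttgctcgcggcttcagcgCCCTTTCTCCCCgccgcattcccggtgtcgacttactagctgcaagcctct
ZFAS1: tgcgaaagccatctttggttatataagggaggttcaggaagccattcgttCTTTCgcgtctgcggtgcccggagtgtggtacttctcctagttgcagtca
SNHG1: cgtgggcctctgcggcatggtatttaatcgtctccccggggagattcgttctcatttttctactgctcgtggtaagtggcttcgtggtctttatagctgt

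Of the 8 host genes whose start region was searched, 5 held such a pyrimidine run: SNHG5, SNHG7, SNHG8, SNHG12 and ZFAS1. The share among all 35116 RefSeq start regions was 19.7%, and 57 of 78 ribosomal protein genes (73.1%) had one. The longest run among the hosts was that of SNHG12, with 12 bases. That of SNHG8 spans positions -5 to 1, so it lies almost wholly before the annotated start. The letters TATAA, searched from 40 to 16 bases before the start, were found in the same 5 genes, against 3.91% of all start regions. They began at position -30 in SNHG5 and SNHG7, -34 in SNHG8, -29 in ZFAS1 and -28 in SNHG12. On the opposite strand TATAA was found in 1 of the 8, ZFAS1, where it overlaps the forward match, and in 1.73% of all start regions. In GAS5, SNHG1 and SNHG16 neither set of letters was at the positions searched. Only 1 annotated start per gene was searched, and RefSeq lists 50 transcripts for GAS5, 12 for SNHG1 and 4 for SNHG16. Whether these genes have a pyrimidine run at another start was not tested.

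Annotation shows the same genes as short spliced RNAs with little coding capacity. Their 62 GENCODE v29 basic transcripts ranged from 240 to 3607 bases, with a median of 716.5 bases and 2 to 13 exons. Read from the first AUG, the frame had a median of 34 codons, and the longest frame from any AUG was 181 codons, in SNHG7. In 56 of the 62 transcripts an exon junction lay at least 50 bases past the stop of the first frame, which is the position that marks a stop codon for NMD in the textbook rule. For GAS5 this held in 10 of 10 transcripts, with a median frame of 35 codons. These are features of the annotated sequences and were not measured in A427.

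The host genes spanned a wide range of levels, and GAS5 was the most abundant in both growth forms. GAS5 stood at 941 TPM in floating cells and 865 TPM in adherent cells, ranks 145 and 154 among all 23686 genes. SNHG5, first found at a chromosome breakpoint of a B-cell lymphoma, came next with 647 TPM in floating and 551 TPM in adherent cells. SNHG8 had 470 TPM in floating and 428 TPM in adherent cells. These 3 are short RNAs: the reads that gave 1 TPM were 5.50 for GAS5, 3.87 for SNHG5 and 1.78 for SNHG8, against a median of 35.9 over all tested genes.

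ZFAS1, an RNA that starts beside the zinc finger gene ZNFX1, was the fourth in order, with 406 TPM in floating and 423 TPM in adherent cells. SNHG6 followed with 287 TPM in floating and 252 TPM in adherent cells, and SNHG1, which carries the snoRNA U22, with 202 TPM in floating and 221 TPM in adherent cells. SNHG16, known from aggressive neuroblastoma, was at 170 TPM in floating and 169 TPM in adherent cells. By reads it was among the most deeply covered hosts, with 5230 in floating and 4869 in adherent cells, because 29.7 of its reads made 1 TPM.

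SNHG7, SNHG15 and SNHG12 formed a low group. SNHG7 had 26.1 TPM in floating and 29.4 TPM in adherent cells, and SNHG12 had 23.0 TPM in floating and 22.6 TPM in adherent cells. SNHG15 had 35.5 TPM in floating and 23.5 TPM in adherent cells. The order of the 10 was the same in both libraries except that SNHG15 stood above SNHG7 in floating cells and below it in adherent cells. Exact Poisson intervals (95%, counting error only) of SNHG15 and SNHG7 did not overlap in floating cells, at 31.5 to 39.9 and 23.4 to 29.1 TPM, but overlapped in adherent cells, at 20.2 to 27.3 and 26.3 to 32.7 TPM. Intervals of SNHG8 and ZFAS1 overlapped in adherent cells (398 to 461 and 406 to 441 TPM) and not in floating cells (439 to 502 and 390 to 423 TPM). SNHG12 overlapped with SNHG7 in both libraries.

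**Figure D1:**
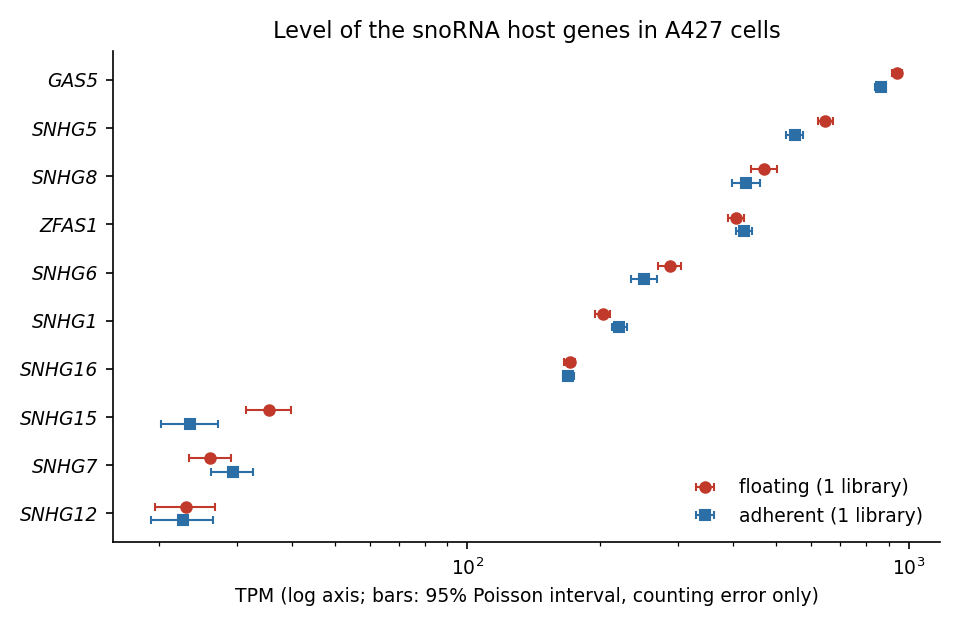
Deposited TPM (log axis) of each host gene in floating cells (red circles) and adherent cells (blue squares), 1 library each, with 95% Poisson intervals that cover counting error only. GAS5 lies at 941 and 865 TPM at the top, and SNHG15 is the gene whose points are farthest apart, at 35.5 and 23.5 TPM.

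Between growth forms the host genes differed little, and the larger differences were toward floating cells. Ratios are floating over adherent on scaled counts, with an exact 95% interval for counting error. For 5 of the 10, SNHG15, SNHG5, SNHG6, SNHG8 and GAS5, the interval lay above 0, and for 1, SNHG1, below 0. Of the 13131 tested genes, 25.5% lay above 0 by this rule and 25.6% below; with a floor of 5 CPM, a level that all 10 hosts reached, the shares were 27.1% and 27.7%. The interval of SNHG1 held 0 when DESeq2 size factors or library totals were used for scaling. None of the 10 was 2-fold apart, as were 1.28% of tested genes on the higher side and 0.754% on the lower side. The median log2 ratio of the 10 was 0.11, and that of all tested genes was -0.0048. In sum the hosts had 20635 reads in floating and 18593 in adherent cells, or 758 and 707 CPM.

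SNHG15, the host of SNORA9 and described as a short-lived RNA that rises under chemical stress, showed the widest difference. It had 282 reads in floating and 176 in adherent cells, a 1.55-fold higher level (interval 1.28 to 1.88; log2 ratio 0.63). Only 3.08% of tested genes had a ratio as high. It was the one host past 1.5-fold, as were 3.24% of tested genes on the higher side and 2.9% on the lower side.

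SNHG5 had 2569 reads in floating and 2070 in adherent cells and was 1.20-fold higher (1.13 to 1.27). SNHG6 had 1006 and 835 reads in floating and adherent cells and was 1.16-fold higher (1.06 to 1.28). SNHG8, host of SNORA24, had 865 reads in floating and 736 in adherent cells and was 1.14-fold higher (1.03 to 1.26). Ratios as high as those of SNHG5, SNHG6 and SNHG8 were met by 14.3%, 17.7% and 21.4% of tested genes.

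GAS5 had 5316 reads in floating and 4608 in adherent cells, a 1.12-fold higher level in floating cells (1.07 to 1.16). A ratio this high was met by 24.8% of tested genes. Its narrow interval reflects its read number, and the difference is among the smaller ones of the hosts that were higher.

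The other hosts were close to even. SNHG16 had a log2 ratio of 0.05 (-0.0024 to 0.11). ZFAS1 had 2405 reads in floating and 2296 in adherent cells, a log2 ratio of 0.02 (-0.07 to 0.10). SNHG12 had 163 reads in floating and 151 in adherent cells, a log2 ratio of 0.06 (-0.27 to 0.39), and SNHG7 had 334 and 327 reads, a log2 ratio of -0.02 (-0.24 to 0.21). The intervals of these 4 held 0, and the counts of SNHG12 and SNHG7 leave room for a level in floating cells from 1.20-fold lower to 1.31-fold higher for SNHG12 and from 1.18-fold lower to 1.15-fold higher for SNHG7. SNHG1, with 2465 reads in floating and 2525 in adherent cells, was 1.06-fold lower in floating cells, and its log2 interval of -0.16 to -0.0031 ended just under 0.

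**Figure D2:**
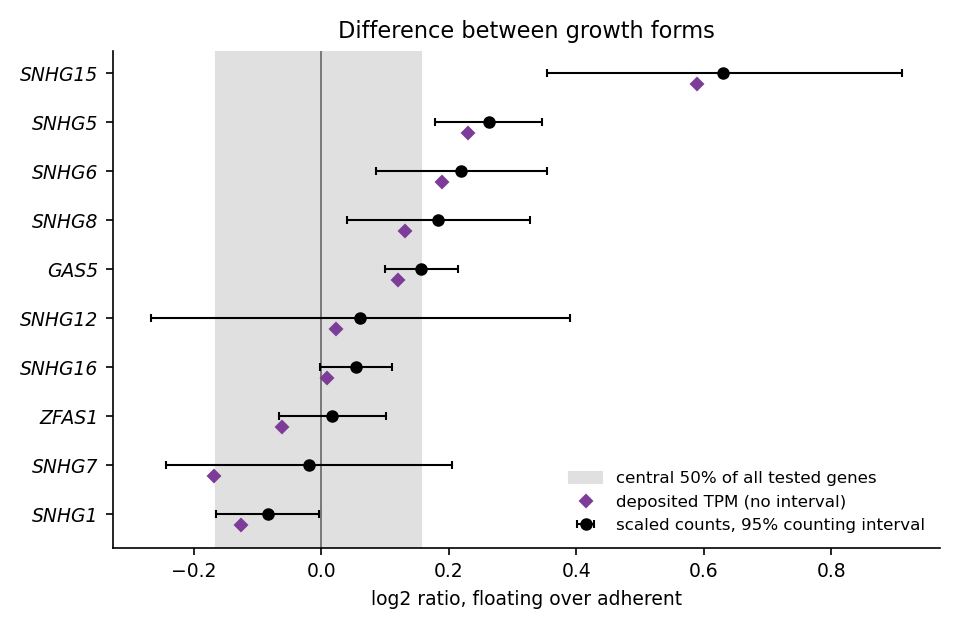
Log2 ratio of floating over adherent for each host gene: black circles are scaled counts with 95% counting intervals, purple diamonds the ratio on deposited TPM, and the grey band holds the central 50% of all tested genes. SNHG15 stands apart at 0.63, SNHG5 at 0.26 is next, and SNHG1 at -0.08 is the lowest.

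Short RNAs as a class were somewhat higher in the floating library, and the hosts are short. Among the 5146 tested genes within the hosts' range of 1.78 to 29.7 reads per TPM, the median log2 ratio was 0.05, with 31.0% of intervals above 0 and 16.3% below. Among the 7983 genes with more reads per TPM it was -0.03. Most of the 5146 are longer than the hosts, with a median of 19.5 reads per TPM against 6.28. In 20 bins of reads per TPM, the median log2 ratio was 0.12 in the bin of GAS5, ZFAS1, SNHG5, SNHG6, SNHG8, SNHG12 and SNHG15. It was 0.10 in that of SNHG1 and SNHG7 and 0.01 in that of SNHG16. With the median trend over reads per TPM removed, a calculation added after the data were seen, the log2 ratios of SNHG15 (0.50, interval 0.23 to 0.79) and SNHG5 (0.14, 0.05 to 0.22) kept intervals above 0. GAS5 (0.03), SNHG6 (0.09) and SNHG8 (0.06) then had intervals that held 0, SNHG1 was at -0.18 and ZFAS1 at -0.11 with its interval below 0. The part of transcript length in the result was not tested further.

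**Figure D3:**
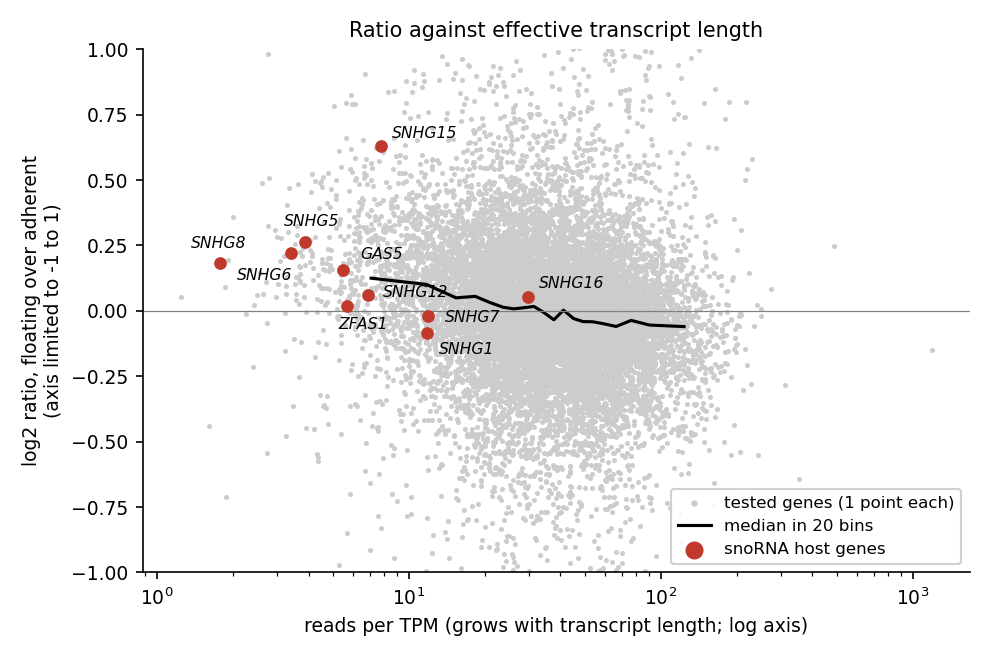
Log2 ratio of floating over adherent against reads per TPM (log axis), a measure that grows with transcript length, for all tested genes (grey), the median in 20 bins (black line) and the 10 host genes (red). The line falls with length, 9 of the hosts lie near its left end or beyond it, and SNHG15 stands highest among the hosts at 0.63.

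Among the genes that RefSeq places within 3000 bases of a host, none had an interval above 0, and 2 had one below. Over all tested genes 25.5% lay above 0 and 25.6% below, and the neighbours are too few to be set against these shares. For SNHG5 and SNHG15 no such neighbour with counts was found, snoRNAs aside, so nothing is compared there. ZBTB37, whose span overlaps that of GAS5, had 182 reads in floating and 211 in adherent cells (log2 ratio -0.26, -0.56 to 0.03). SLC3A2, the amino acid transporter chain beside SNHG1, had 5285 reads in floating and 5097 in adherent cells (0.0032, -0.05 to 0.06), and ZNFX1 beside ZFAS1 had a log2 ratio of 0.05 (-0.01 to 0.12). TRNAU1AP, which overlaps SNHG12, had 708 reads in floating and 832 in adherent cells (-0.28, -0.43 to -0.14), and ST6GALNAC2 beside SNHG16 was at -0.86 with 22 reads in floating and 39 in adherent cells. MCMDC2 at SNHG6, FAM69B at SNHG7 and PRSS12 at SNHG8 had intervals that held 0, and the antisense gene GAS5-AS1 had 0 reads in both. The strand setting of the counting is not known here, so hosts that overlap a neighbour may share reads with it. The estimates of all 10 hosts were whole numbers in both libraries.

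The snoRNAs that lie in these hosts were almost unseen. Of 35 such entries in the tables, 31 had 0 reads in both libraries and none had more than 1 read in either. A count of 0 allows up to 3 reads. Of the 11 snoRNAs that RefSeq places within GAS5, the 10 looked up in the tables, among them SNORD44 and SNORD47, had 0 reads in both libraries beside 5316 and 4608 reads of GAS5 itself. The libraries were made from poly(A) RNA, which mature snoRNAs lack, so these zeros say nothing about snoRNA levels.

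Other snoRNA hosts did not share one direction. Of 8 further noncoding hosts that were tested, 2 had intervals above 0, 1 below, and the median log2 ratio was -0.02, which ranged from -0.13 to 0.11 over the alternatives. LOC388796, which the RefSeq table names SNHG17, had 223 reads in floating and 167 in adherent cells and was 1.29-fold higher (1.05 to 1.59), and SNHG3 was 1.10-fold higher (1.04 to 1.17). C6orf48, now SNHG32, had 1127 reads in floating and 1266 in adherent cells, at a log2 ratio of -0.22. Of 45 protein-coding hosts, 21 (46.7%) had intervals above 0 and 12 (26.7%) below, with a median of 0.04. Over all tested genes the shares were 25.5% above and 25.6% below. The assembly factor of large ribosomal subunits PPAN (0.32), the snoRNP protein NOP58 (0.26), the ribosome biogenesis factor WDR43 (0.25) and RPS12 (0.24) had the highest log2 ratios among them. Many protein-coding hosts are deeply read, so that even small ratios can have an interval that excludes 0. Their ribosomal protein genes, NOP56, NOP58, DKC1, EEF1B2, EEF2 and TPT1 are counted again in the lists below, so the lists are not independent.

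Proteins that bind and assemble snoRNAs were higher in floating cells or even. Of 18 measured, 10 (55.6%) had intervals above 0 and none below, with a median log2 ratio of 0.16. Among all tested genes 25.5% lay above 0 and 25.6% below. RUVBL2, an ATPase of the chaperone complex that assembles snoRNPs, had 2527 reads in floating and 1732 in adherent cells and was 1.41-fold higher (log2 ratio 0.50). NHP2L1, the protein that first binds box C/D snoRNAs and is now named SNU13, was 1.35-fold higher (1.27 to 1.43). NOLC1, a nucleolar and Cajal body phosphoprotein, was 1.29-fold higher and GAR1 of the box H/ACA particle 1.27-fold higher. The methyltransferase FBL (0.16) and the pseudouridine synthase DKC1 (0.17), named after their values were seen, were at log2 ratios close to the list's median.

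Ribosomal protein mRNAs, known for the TOP tract, leaned toward floating cells on scaled counts but not with the length trend removed. Other TOP mRNAs leaned toward adherent cells. A pyrimidine run was found in 5 of the 8 hosts searched, so the hosts do not share it as a group. Of 79 ribosomal protein genes, 45 (57.0%) had intervals above 0 and 15 (19.0%) below, with a median log2 ratio of 0.06. The shares over all tested genes were 25.5% and 25.6%. Ribosomal protein genes are deeply read, so that even small ratios can have an interval that excludes 0. Among those with intervals above 0 were RPL36 (0.31), RPL31 (0.28) and RPL11 (0.27). Of 19 translation factor and related TOP mRNAs, 3 had intervals above 0 (NPM1, EIF3H and EEF1D) and 14 below, with a median of -0.09. The initiation factor EIF4B was at -0.20 with 39217 reads in floating and 43598 in adherent cells, the histone chaperone NAP1L1 at -0.20, the importin IPO5 at -0.19 and EIF3L at -0.19. Ribosomal protein mRNAs are short like the hosts, with a median of 6.28 reads per TPM for the hosts and 6.53 for them, and with the length trend removed their median was -0.05, against 0.04 for the hosts.

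Factors that carry out NMD went both ways. Of 21, 10 (47.6%) had intervals above 0 and 5 (23.8%) below, with a median log2 ratio of 0.02 on counts and -0.02 on TPM. For all tested genes the shares were 25.5% and 25.6%, and the medians were -0.0048 on counts and -0.05 on TPM. The exon junction protein MAGOHB was 1.31-fold higher (1.21 to 1.42), the termination factor ETF1 1.29-fold higher (1.25 to 1.32) and PNRC2, which links UPF1 to decapping, 1.24-fold higher. The 5 below were SMG6, the endonuclease of the pathway, at -0.29 (-0.42 to -0.16), and UPF2, SMG8, CASC3 and DHX34. The central helicase UPF1 was even, with 3146 reads in floating and 3094 in adherent cells (-0.02, -0.10 to 0.05). Enzymes of general RNA decay also went both ways, with 9 of 27 intervals above 0, 7 below and a median of -0.02. The decapping cofactor DCP1B (0.61), the exosome subunit EXOSC7 (0.59) and LSM1 (0.51) were higher, and the deadenylase CNOT8 was at -0.46.

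Protein-coding mRNAs known as targets of NMD had log2 ratios from -0.47 to 1.42, and the hosts from -0.08 to 0.63. Of 14, 7 had intervals above 0 and 4 below, with a median log2 ratio of 0.05. Among all tested genes 25.5% lay above 0, 25.6% below, and 1.28% were past 2-fold on the higher side. The 3 past 2-fold were UPP1, a uridine phosphorylase, with 823 reads in floating and 298 in adherent cells (2.67-fold, 2.34 to 3.06), the growth arrest gene GADD45A with 478 and 206 reads (2.24-fold, 1.90 to 2.65) and the stress factor ATF3 with 703 and 334 reads (2.03-fold, 1.78 to 2.32). DDIT3, the stress factor CHOP, was 1.44-fold higher. Those below were GADD45B, at -0.47 (-0.60 to -0.35), MAP3K14, at -0.40, NAT9, at -0.18, and UPF2, at -0.07. GADD45A, ATF3 and DDIT3 are also known as stress-response genes. SMG1, SMG5, UPF2 and UPF3B belong to the list of NMD factors too, so the lists are not independent.

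Of the mTOR axis, 11 of 22 genes had intervals above 0 and 6 below, with a median of 0.09. The shares over all tested genes were 25.5% above and 25.6% below. SESN2, a sestrin that restrains mTOR under stress, had 1493 reads in floating and 666 in adherent cells (2.17-fold, 1.98 to 2.38), and DDIT4, another restraining factor, was 1.59-fold higher (1.35 to 1.88). The translation repressor EIF4EBP1 was 1.31-fold higher. The 6 below were RICTOR (-0.30), the sestrin SESN3 (-0.78), TSC1 (-0.19), TSC2 (-0.10), LARP1B (-0.15) and RPS6 (-0.07). SESN3, with 33 reads in floating and 55 in adherent cells, TSC1 and TSC2 also restrain mTOR, so restraining genes went both ways. LARP1, the protein that binds TOP tracts, was at 0.03 on counts and -0.02 on TPM. The medians of all tested genes were -0.0048 on counts and -0.05 on TPM. The glucocorticoid receptor gene NR3C1 had 1697 reads in floating and 2329 in adherent cells, a log2 ratio of -0.51 (-0.60 to -0.41). Of the receptor and its targets, 4 of 10 tested genes had intervals above 0 and 5 below, with a median of -0.10. The metallothionein MT2A (0.98) and the phosphatase DUSP1 (0.75) were higher and KLF9 was at -0.42, while FKBP5, a target often used as a readout of the receptor, was at -0.01 with 1591 and 1553 reads in floating and adherent cells.

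**Figure D4:**
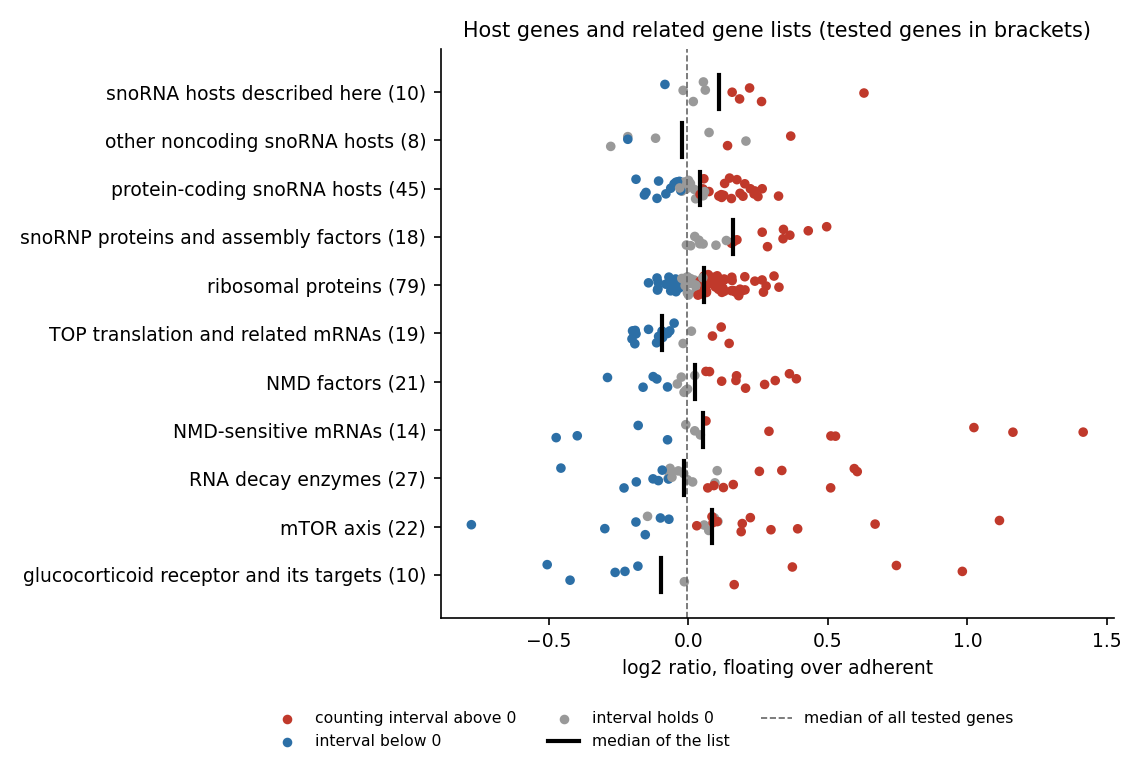
Log2 ratio of floating over adherent for the tested genes of each list (points; red, interval above 0; blue, below 0; grey, holding 0), with the list's median (black bar) and the median of all tested genes (dashed line). The 10 hosts have a median of 0.11, snoRNP proteins one of 0.16 with no interval below 0, and TOP translation mRNAs one of -0.09.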

How the data were processed

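Floating and adherent A427 cells were sequenced as 1 poly(A) library each (KAPA mRNA kit, per the labels' protocols). The submitters' processing notes name RSEM 1.3.3, STAR 2.5.3a, FastQC 0.11.1 and hg19. Annotation, settings and strand use are not stated there. The authors deposited estimated counts per gene, without normalization, and TPM, which they scaled by length. Here counts were rounded and scaled by TMM in edgeR 4.0.16 (R 4.3.3), without its test, since each group has 1 library. The log2 ratio used a prior count of 0.5, with exact Clopper-Pearson 95% intervals conditional on a gene's summed reads. Reads carry no molecular identifiers, so the intervals and limits hold counting error alone, not RSEM's assignment of reads or the spread between cultures. The calculation was tested on simulated counts with counting error alone, which checks its arithmetic and cannot show how the intervals behave with spread between cultures.

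Other settings tried were scaling by library totals, by upper quartile and by size factors of DESeq2 1.42.0, TPM (log2 of TPM + 0.1), a prior count of 5, other filters and fold thresholds, and, added later, removal of the length trend. The genes and lists were chosen with earlier results of these data known. Named from each list were up to 4 genes of at least 5 CPM with the largest ratios whose interval excluded 0, and all past 2-fold, every gene of lists of 5 or fewer, and neighbours of the hosts; UPF1, FBL, DKC1, LARP1, FKBP5 and the genes that complete small counts were named after their values were seen, and 1 gene that the rule picks is not reported here. Start regions came from RefSeq, transcripts from GENCODE v29. Scripts ran in Python 3.11.15 (pandas 2.3.3, scipy 1.17.1).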

Additional observations from a re-analysis of the deposited data

How the results depend on the processing

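With 1 library per growth form, no value has a replicate check, and depth limits SNHG12, SNHG7 and SNHG15 most. No paired analysis was possible because each group holds 1 library. The ratios of SNHG5 and SNHG15 stayed above 0, with their intervals where one was computed, under all scalings, filters, the deposited TPM, a prior count of 5 and the removed length trend, at log2 ratios of 0.14 to 0.27 and 0.50 to 0.64. SNHG1 had a log2 ratio of -0.075 with DESeq2 size factors and -0.076 with library totals, and its interval then held 0, which left 0 hosts below 0 under both. SNHG16 was at 0.063 and 0.062 under these settings, with its interval then above 0, so 6 hosts lay above 0. At a 1.5-fold threshold 1 host was higher. With the length trend removed GAS5 was at 0.032, SNHG6 at 0.095 and SNHG8 at 0.059 with intervals that held 0, and ZFAS1 at -0.11 with its interval below 0, so 2 hosts lay above 0 and 2 below. The cause was not tested. The shares of all tested genes under these scalings and with the trend removed are not given here, so these counts stand without a background. The median of the hosts ranged from 0.04 to 0.12. None of the 6 hosts whose interval excluded 0 changed sign under any of these settings. Signs did turn among values without such a call: for example, ZFAS1 was at -0.061 on the deposited TPM, and with the length trend removed SNHG12 was at -0.064 and the ribosomal protein median at -0.047, against 0.058 without that step. The median of all tested genes was itself -0.05 on the deposited TPM, against -0.0048 on scaled counts.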

Other observations

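The only small nucleolar or Cajal body RNAs with at least 10 reads in a library were scaRNAs, which guide the modification of spliceosomal RNAs. Among 368 snoRNA entries, 349 had 0 reads in both libraries and the highest count in either was 5 reads. Of 24 scaRNA entries 5 had at least 10 reads in a library, and together the 24 had 110 reads in floating and 138 in adherent cells. SCARNA9 had 27 reads in floating and 43 in adherent cells, at a log2 ratio of -0.71 (-1.47 to 0.0070), SCARNA7 had 22 and 29 reads, SCARNA17 had 19 and 27 reads and SCARNA12 had 18 and 10 reads in floating and adherent cells. SCARNA9L, which like SCARNA9 had estimates with decimals, had 11 reads in floating and 18 in adherent cells. The counting intervals of all 5 held 0. These entries were chosen after their values were seen.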
